A study of Mus musculus with 11 samples.

Results

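The 41 genes described here take up fatty acids, activate and burn them in mitochondria, release them from lipid droplets, switch fuel choice towards them or burn the ketones made from them. They were taken by symbol from a list of 41 names, and all 41 were found among the 55385 genes of the deposited count table. Their RNA was measured in gastrocnemius, a mixed-fibre calf muscle of the mouse, dissected after 36 h without food. The knockout groups were ZEB1 flx/flx; HSACre (ZEB1 KO, 3 libraries) and ZEB2 flx/flx; HSACre (ZEB2 KO, 3 libraries). Their controls were ZEB1 flx/flx mice (2 libraries, numbered 2 and 3) and ZEB2 flx/flx mice (3 libraries) without Cre. Every library pooled 2 mice, and all groups carried floxed alleles and were fasted. The age of the mice is not given in the sources used here. HSACre is driven by the skeletal actin promoter and acts in myofibres, so other cells of the muscle keep their alleles. No group carried HSACre without floxed alleles, and the loss of a ZEB gene and the presence of Cre cannot be told apart. Both factors carry zinc fingers that bind E-box sequences in DNA, and the comparison asked how their removal from fibres alters fasted muscle.

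Fasting muscle turns from glucose to fatty acids and ketones. Lipoprotein lipase frees fatty acids at the capillary wall, CD36 and the fatty acid transport proteins bring them in, and acyl-CoA synthetases trap them as acyl-CoA. The carnitine shuttle carries long-chain acyl-CoA into mitochondria, where beta-oxidation shortens the chain in cycles and passes electrons to the respiratory chain through the electron transfer flavoproteins. PPAR and oestrogen-related nuclear receptors, with their PGC-1 coactivators, are the best known activators of these genes, while malonyl-CoA blocks the shuttle and pyruvate dehydrogenase kinases hold back glucose oxidation.

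Libraries held 27286288 to 46259639 counts, and the 41 genes drew 0.757% to 1.47% of them. Levels are CPM, counts scaled to a common library size with trimmed mean of M values (TMM) factors, with SD over libraries. The myofibre list had all 10 markers detected in every library and summed to between 106757 and 142572 CPM. Zeb1 was at 28.4, 28.6 and 30.4 CPM in ZEB1 KO muscle, against 41.2 and 51.1 CPM in ZEB1 control muscle. Zeb2 was at 18.3, 14.4 and 17.7 CPM in ZEB2 KO muscle, against 24.1, 23.1 and 25.8 CPM in ZEB2 control muscle. The groups did not overlap for either gene in its own line, although a gene-level count also takes in exons outside a deletion. The other factor was not level in both lines. Zeb1 was at 67.2, 60.2 and 76.0 CPM in ZEB2 KO muscle, against 47.7, 52.1 and 43.7 CPM in ZEB2 control muscle. These groups did not overlap either, where 21.3% of all genes were separated upwards. Zeb2 was at 21.8, 19.7 and 20.7 CPM in ZEB1 KO muscle, against 20.8 and 18.7 CPM in ZEB1 control muscle, which overlapped. Summed Y-linked RNA was at 0 in ZEB1 KO 1, ZEB1 KO 2, ZEB1 control 2 and ZEB2 control 3, at 118 to 378 CPM in the other libraries, and thus above 0 in all 3 ZEB2 KO libraries. The pools therefore differed in sex, and the part of sex in the values below was not tested. A covariate fit on the Y-linked level is given under the dependence on processing. In the ZEB2 line that level was at 0 only in ZEB2 control 3, so there the covariate mostly marks this library.

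All 41 genes were expressed and passed the filter on low counts, with at least 113 counts in every library, and 31 of them had at least 1000. Per kilobase of exon, the mean level over the 11 libraries ran from 1.12 CPM for Acot11 to 963 CPM for Pdk4. Exon length took in all annotated exons of a gene together, so the order of genes depends on the annotation. Behind Pdk4 came Fabp3 at 850 CPM per kilobase, Pnpla2 at 194, Acadl at 173 and Cd36 at 165. At the low end, above Acot11, stood Slc27a4 at 1.71, Ucp2 at 3.18 and Acot1 at 4.82 CPM per kilobase. The highest library exceeded the lowest by 1.19-fold for Hadh and by 8.10-fold for Acot1, with a median over the genes of 2.08-fold, and 24 genes varied by more than 2-fold.

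**Figure D1:**
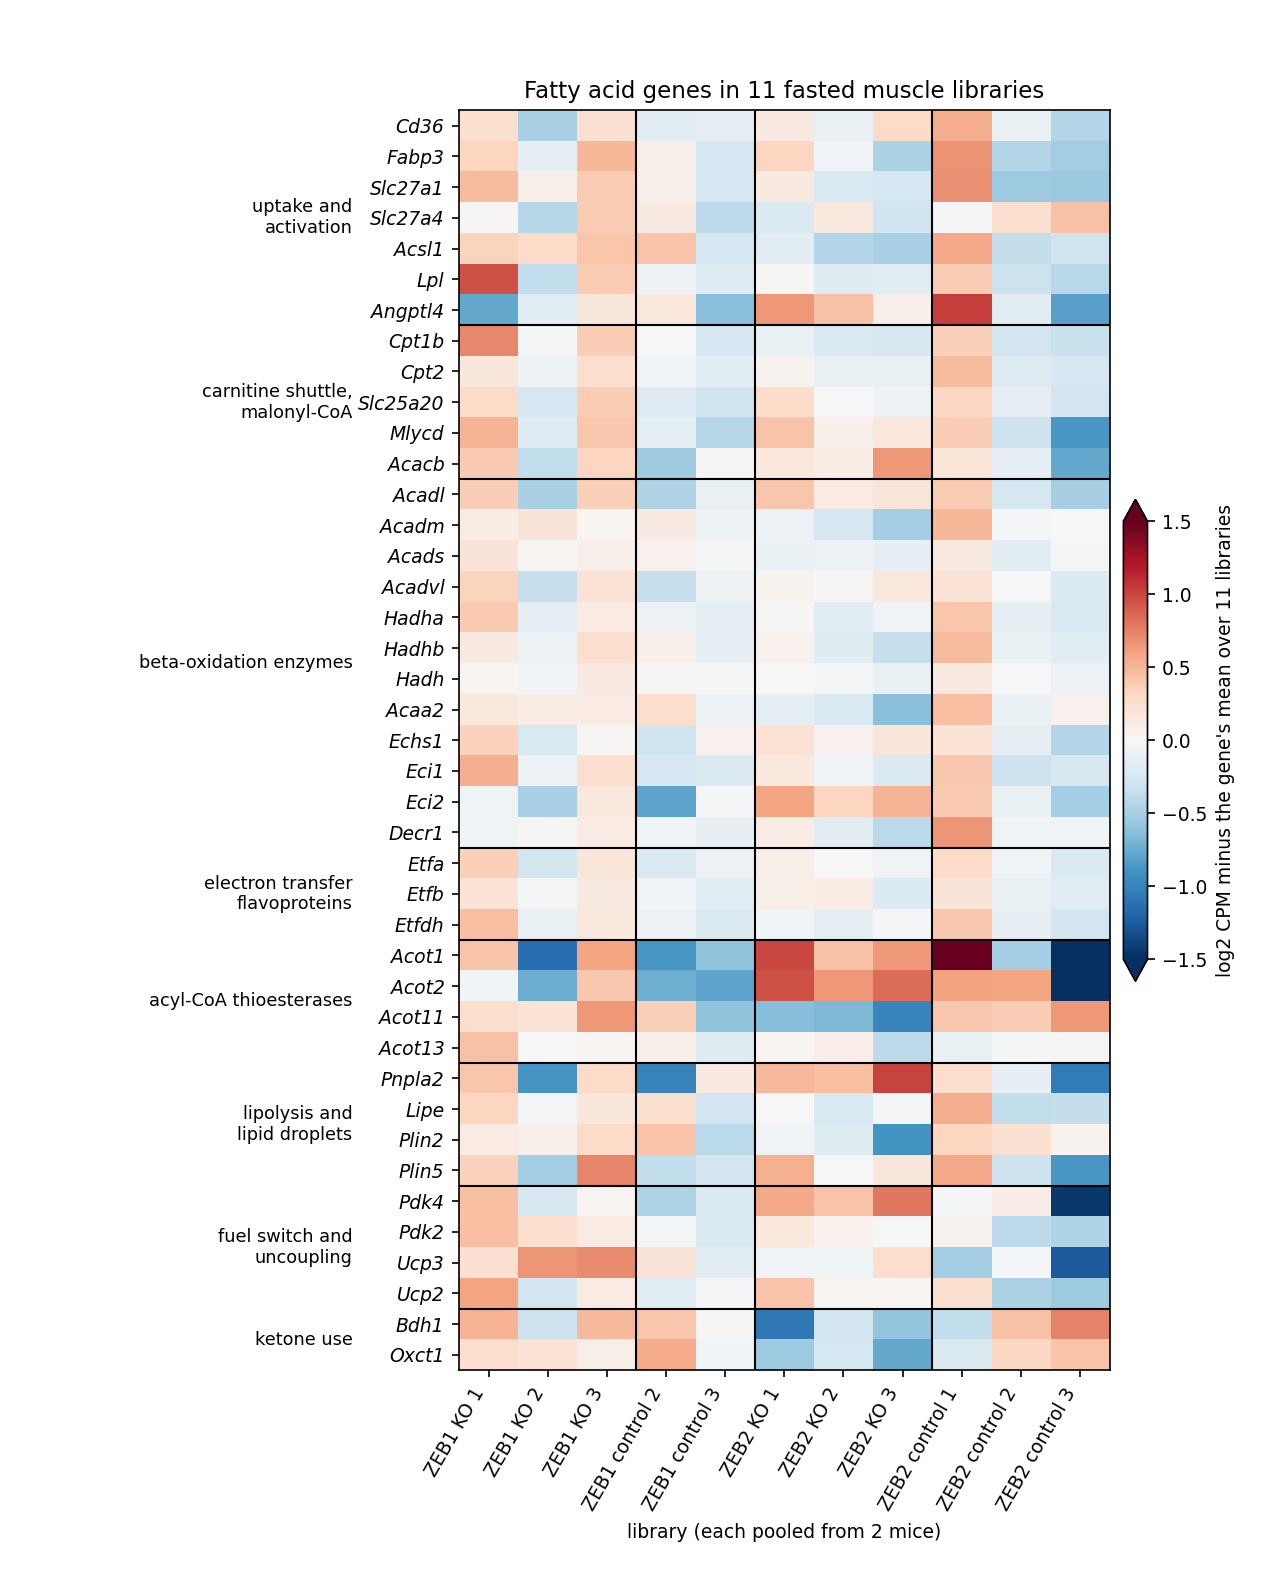
Level of each of the 41 genes (rows, grouped by role) in each of the 11 libraries (columns, each knockout group left of its control), as log2 CPM minus the gene's mean over all libraries; red is above and blue below that mean, and the colour scale is clipped at 1.5. ZEB2 control 1 and ZEB1 KO 1 are red for most rows, ZEB2 control 3 is blue for most rows, and the ketone genes at the bottom run the other way in ZEB2 control 3.

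No member passed an adjusted p of 0.05 in edgeR's quasi-likelihood test in either knockout contrast, where no gene at all did (0% of 15416). In ZEB1 KO against ZEB1 control muscle, 39 of the 41 genes had a fold change above 0 and 2 below 0, against 51.2% of all genes above 0. The median log2 fold change was 0.25 over the members and 0.01 over all genes. Only Pdk2 reached an unadjusted p under 0.05 (1 of 41, against 3.24% of all genes). Every ZEB1 KO library exceeded every ZEB1 control library for 5 members, Slc27a1, Eci1, Etfb, Pdk2 and Ucp3, where 7.19% of all genes were so separated, and no member was separated downwards, where 6.69% of all genes were. The members move together from library to library, so 39 genes above 0 are not 39 separate observations. Leaving out single libraries kept between 32 and 39 genes above 0, lowest without ZEB1 control 3, and the median between 0.17 and 0.41. Beside this shift, 10 of 10 fibroblast markers were below 0 in the ZEB1 line, at a median of -0.58, and summed to 1652 to 2304 CPM in ZEB1 KO muscle and 2651 to 2718 CPM in ZEB1 control muscle, without overlap and with none at 0. Of 10 macrophage markers 8 were below 0, and they summed to 130.1 to 197 CPM in ZEB1 KO muscle and 188 to 209 CPM in ZEB1 control muscle. The part of these cells in the values was not tested.

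In ZEB2 KO against ZEB2 control muscle the members split, with 19 above 0 and 22 below 0, against 46.6% of all genes above 0. Their median log2 fold change was -0.03, beside -0.05 over all genes. With upper-quartile factors or library totals in place of TMM, the split was 14 above and 27 below, and the median over all genes moved to -0.18 and -0.17. An unadjusted edgeR p under 0.05 was reached by 7 members (17.1%), against 33.2% of all genes. The 6 below 0 were Acadm, Acaa2, Acot11, Plin2, Bdh1 and Oxct1, against 17.3% of all genes, and the 1 above 0 was Pdk4, against 15.9%. The 3 ZEB2 KO libraries all exceeded the 3 ZEB2 control libraries for 3 members (Acot2, Pnpla2 and Pdk4), against 21.3% of all genes, and all lay below them for 5 members (Acadm, Acaa2, Acot11, Plin2 and Oxct1), against 22.1% of all genes. Both shares of members were below the background. DESeq2, run as an alternative, called 4 members in the ZEB2 contrast, Acot11, Oxct1 and Bdh1 lower (against 7.7% of all genes) and Pdk4 higher (against 9.08%), in all 16.8% of all genes. It called no member in the ZEB1 contrast, against 0.136% of all genes.

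**Figure D2:**
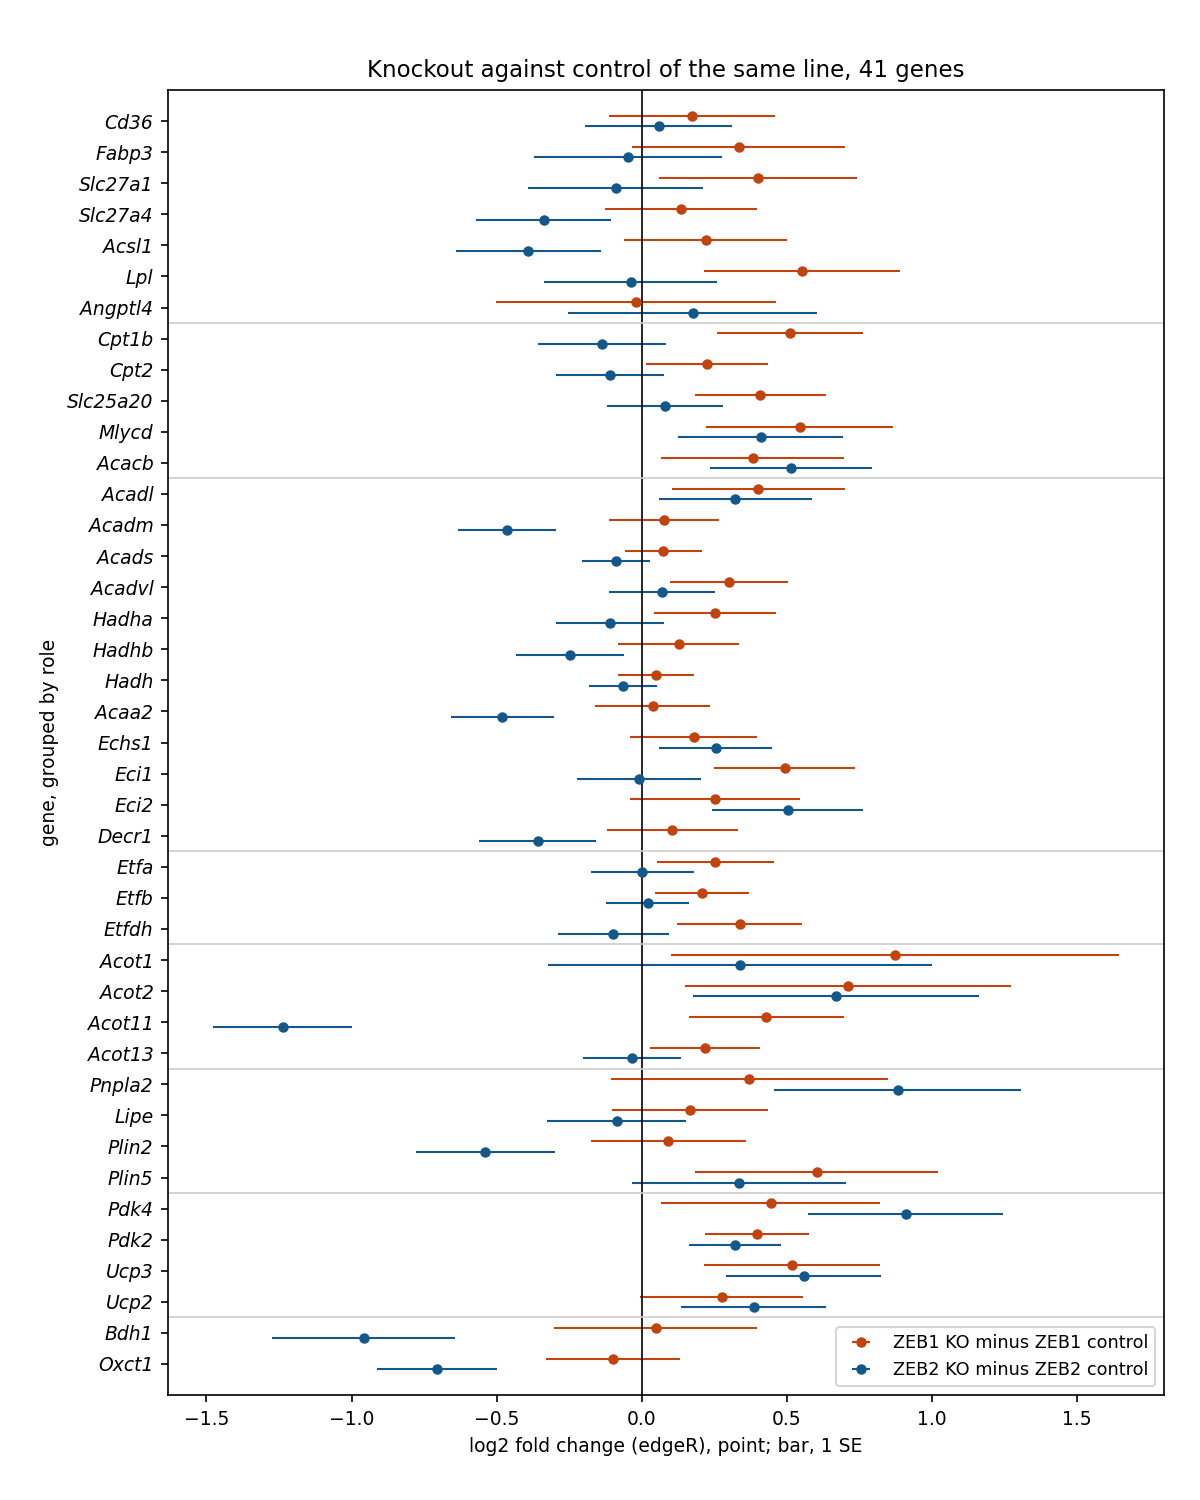
Log2 fold change of each of the 41 genes from edgeR, knockout minus control of the same line (x axis), with genes grouped by role from top to bottom as in the text; points are estimates, bars are 1 standard error, orange is the ZEB1 line and blue the ZEB2 line. In the ZEB1 line 39 of 41 points lie right of 0, while in the ZEB2 line 22 lie left of it, farthest for Acot11, Bdh1 and Oxct1.

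Among the 7 uptake and activation genes, 6 had fold changes above 0 in ZEB1 KO muscle and 2 in ZEB2 KO muscle, and none passed the edgeR test. Lpl, the lipase that frees fatty acids from circulating lipoproteins, had 1492, 594 and 1001 CPM in ZEB1 KO muscle, against 729 and 674 CPM in ZEB1 control muscle. The groups overlapped, because ZEB1 KO 2 lay below both controls while ZEB1 KO 1 was the highest of all 11 libraries. The log2 fold change was 0.55 ± 0.34 (SE), and it was 0.17 without ZEB1 KO 1 and 0.83 without ZEB1 KO 2. In the ZEB2 line Lpl had 775, 674 and 681 CPM in KO muscle, against 998, 614 and 575 CPM in control muscle, a log2 fold change of -0.04 ± 0.30. The ZEB2 control values straddled all 3 knockout values. Acsl1, the main acyl-CoA synthetase of muscle, had 347, 337 and 369 CPM in ZEB1 KO muscle against 373 and 230 CPM in ZEB1 control muscle. It had 245, 204 and 197 CPM in ZEB2 KO muscle against 408, 215 and 224 CPM in ZEB2 control muscle. The ZEB2 log2 fold change of -0.39 ± 0.25 had the smallest unadjusted edgeR p of the role in that line, 0.146, and rested mostly on ZEB2 control 1: without it the value was -0.03.

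Cd36, the fatty acid translocase of the cell surface, had 687, 415 and 678 CPM in ZEB1 KO muscle against 520 and 531 CPM in ZEB1 control muscle. In the ZEB2 line it had 639, 538 and 710 CPM in KO muscle against 846, 537 and 429 CPM in control muscle. Both pairs of groups overlapped, and the log2 fold changes were 0.17 ± 0.29 in the ZEB1 line and 0.06 ± 0.25 in the ZEB2 line. Angptl4, a secreted inhibitor of lipoprotein lipase induced by PPARs, had 14.8, 22.4 and 28.2 CPM in ZEB1 KO muscle against 28.0 and 16.2 CPM in ZEB1 control muscle. It had 39.5, 34.2 and 26.5 CPM in ZEB2 KO muscle against 51.8, 22.6 and 14.3 CPM in ZEB2 control muscle, so 1 control library lay above and the others below all 3 knockouts. Fabp3, the muscle fatty acid binding protein, and the transport proteins Slc27a1 and Slc27a4 had log2 fold changes of 0.33, 0.40 and 0.14 in the ZEB1 line and -0.05, -0.09 and -0.34 in the ZEB2 line. Capillary and fat cells also make several of these RNAs, and in whole muscle fewer cells of a type and less RNA per cell cannot be told apart. The 10 endothelial markers summed to 552 to 631 CPM in ZEB2 KO muscle and 574 to 695 CPM in ZEB2 control muscle, with none at 0 in any library. Of these markers 3 were higher and 7 lower. The adipocyte list summed to 198 to 386 CPM in ZEB2 KO muscle and 353 to 535 CPM in ZEB2 control muscle, with 9 of its 9 tested genes lower and Adrb3, Lep and Ucp1 at 0 in at least 1 library. Macrophage markers summed to 107 to 118 CPM in ZEB2 KO and 130 to 172 CPM in ZEB2 control muscle, and fibroblast markers to 1716 to 1899 CPM in ZEB2 KO and 1965 to 2494 CPM in ZEB2 control muscle. In the ZEB1 line the adipocyte list summed to 277 to 348 CPM in KO and 247 to 446 CPM in control muscle, with 3 of 9 genes higher and 6 lower. The part of these cells in the values was not tested.

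The 5 genes of the carnitine shuttle and its malonyl-CoA control were all above 0 in ZEB1 KO muscle, where their median was 0.41 on the log2 scale, and 3 of 5 were above 0 in ZEB2 KO muscle, with a median of 0.08. Cpt1b, the muscle carnitine palmitoyltransferase that controls entry of long-chain acyl-CoA, had 470, 279 and 367 CPM in ZEB1 KO muscle against 285 and 237 CPM in ZEB1 control muscle. ZEB1 KO 1 and 3 lay above both controls, and ZEB1 KO 2 lay between them. The log2 fold change of 0.51 ± 0.25 had an unadjusted edgeR p of 0.0653. In the ZEB2 line Cpt1b had 266, 243 and 241 CPM in KO muscle against 366, 234 and 226 CPM in control muscle, with ZEB2 control 1 alone above the knockouts. Acacb, the mitochondrial-membrane acetyl-CoA carboxylase that makes the malonyl-CoA inhibiting Cpt1b, had 547, 323 and 520 CPM in ZEB1 KO muscle against 288 and 422 CPM in ZEB1 control muscle. Its levels were 465, 451 and 655 CPM in ZEB2 KO muscle against 476, 378 and 246 CPM in ZEB2 control muscle. The groups overlapped in both lines, at log2 fold changes of 0.38 ± 0.31 in the ZEB1 line and 0.51 ± 0.28 in the ZEB2 line. Mlycd, which breaks malonyl-CoA down, stood at 0.55 in the ZEB1 line and 0.41 in the ZEB2 line. Slc25a20, the carnitine-acylcarnitine carrier, and Cpt2, the inner-membrane transferase, stood at 0.41 and 0.23 in the ZEB1 line and at 0.08 and -0.11 in the ZEB2 line. Read length is not stated, and words of 50 bases were assumed for counting shared sequence. Of the 50-base words of Cpt1b transcripts, 80.4% also occur in the gene model Gm44502 at a mean of 1.13 CPM, so the share of reads given to each is uncertain.

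All 12 beta-oxidation enzymes were above 0 in ZEB1 KO muscle, with log2 fold changes between 0.04 and 0.49, and 8 of 12 were below 0 in ZEB2 KO muscle, with values between -0.48 and 0.50. Acadm, the medium-chain acyl-CoA dehydrogenase, had 233, 206 and 174 CPM in ZEB2 KO muscle against 351, 246 and 249 CPM in ZEB2 control muscle. All 3 knockout values lay below the controls, and the log2 fold change of -0.46 ± 0.17 had an adjusted edgeR p of 0.102. Acadm had 267, 283 and 253 CPM in ZEB1 KO muscle against 272 and 236 CPM in ZEB1 control muscle, and the groups overlapped. Acaa2, the mitochondrial thiolase that closes the cycle, had 128, 120 and 91.0 CPM in ZEB2 KO muscle against 193, 132 and 147 CPM in ZEB2 control muscle. These groups did not overlap either, at -0.48 ± 0.18 and an adjusted edgeR p of 0.106. Its ZEB1 KO values of 158, 153 and 154 CPM lay between the ZEB1 control values of 169 and 133 CPM.

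Hadha, the alpha subunit of the trifunctional protein, had 446, 309 and 371 CPM in ZEB1 KO muscle against 319 and 311 CPM in ZEB1 control muscle. It had 344, 306 and 327 CPM in ZEB2 KO muscle against 455, 308 and 292 CPM in ZEB2 control muscle. The groups overlapped in both lines, and the log2 fold changes were 0.25 ± 0.21 in the ZEB1 line and -0.11 ± 0.19 in the ZEB2 line. Its partner Hadhb, the beta subunit, stood at 0.13 (ZEB1 line) and -0.25 (ZEB2 line), and the ratio of Hadha to Hadhb CPM lay between 0.749 and 1.03 over the 11 libraries. Hadhb shares 57.5% of its 50-base words with Gm13910, which had a mean of 3.78 CPM, and Hadha shares none. Both genes start head to head, 273 bases apart, and their 300-base windows around the RefSeq starts share 228 bases. Most of the stretch before the start of Hadha also lies in the window of Hadhb, and whether it bears on the levels of either was not tested. That stretch (GRCm38.p6, chr5:30154981-30155230, minus strand) is shown because the pair share most of it, and holds none of the motifs searched:
Hadha upstream: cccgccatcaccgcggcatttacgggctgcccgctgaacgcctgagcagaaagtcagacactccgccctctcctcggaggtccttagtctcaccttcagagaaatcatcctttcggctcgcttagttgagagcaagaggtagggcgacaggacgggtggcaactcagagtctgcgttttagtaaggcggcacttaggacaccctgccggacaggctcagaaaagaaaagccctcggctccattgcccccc

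Of the other enzymes, the long-chain and very-long-chain dehydrogenases Acadl and Acadvl stood at 0.40 and 0.30 in the ZEB1 line and 0.32 and 0.07 in the ZEB2 line. The short-chain enzymes Acads and Hadh were the steadiest members, with highest over lowest libraries of 1.28-fold and 1.19-fold. Echs1, the enoyl-CoA hydratase, stood at 0.18 (ZEB1 line) and 0.26 (ZEB2 line). The auxiliary enzymes for unsaturated fatty acids differed among themselves: Eci1 stood at 0.49 (ZEB1 line) and -0.01 (ZEB2 line), Eci2 at 0.25 (ZEB1 line) and 0.50 (ZEB2 line), and Decr1 at 0.11 (ZEB1 line) and -0.36 (ZEB2 line). For Eci1 all 3 ZEB1 KO values, 128, 83.1 and 105 CPM, lay above the ZEB1 control values of 73.8 and 75.9 CPM, at an unadjusted edgeR p of 0.0659. Markers of slow, oxidative fibres had fold changes below 0 in both lines, 10 of 10 in each. In the ZEB1 line this was opposite in sign to all 12 enzymes. Their sum was 2295 to 3762 CPM in ZEB2 KO muscle and 4025 to 4817 CPM in ZEB2 control muscle, and 3007 to 4230 CPM in ZEB1 KO muscle and 3744 to 5794 CPM in ZEB1 control muscle, with none at 0. Their part in the values was not tested.

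Etfa, Etfb and Etfdh pass the electrons of the acyl-CoA dehydrogenases to ubiquinone, and all 3 were above 0 in ZEB1 KO muscle, between 0.21 and 0.34, while none left the range from -0.10 to 0.02 in ZEB2 KO muscle. Etfdh, the membrane-bound oxidoreductase, had 227, 154 and 185 CPM in ZEB1 KO muscle against 155 and 143 CPM in ZEB1 control muscle, and 161, 150 and 164 CPM in ZEB2 KO muscle against 219, 152 and 137 CPM in ZEB2 control muscle. Both pairs overlapped, in the ZEB1 line only through ZEB1 KO 2. Etfb, the beta subunit, had 170, 146 and 162 CPM in ZEB1 KO muscle against 144 and 132 CPM in ZEB1 control muscle, which lay close together without overlap. In the ZEB2 line it had 157, 160 and 128 CPM in KO muscle against 170, 137 and 132 CPM in control muscle, which did. A gene model without a row of its own here, Gm45233, shares 57.7% of the 50-base words of Etfb.

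The acyl-CoA thioesterases, which split acyl-CoA back into fatty acid and CoA, held both the largest and the least steady values of the set. Acot11 (chr4:106744555-106804998, minus strand), a long-chain thioesterase known from brown fat, had 4.06, 3.96 and 3.18 CPM in ZEB2 KO muscle against 8.35, 8.15 and 9.90 CPM in ZEB2 control muscle. All knockout libraries lay at about the same level and below every control. The means were 3.73 ± 0.48 and 8.80 ± 0.96 CPM (SD, n = 3 each), and the log2 fold change was -1.24 ± 0.24. Its adjusted p was 0.0775 by edgeR's quasi-likelihood test and 0.000691 by DESeq2. Other edgeR fits called it too, at an adjusted edgeR p of 0.0256 without a filter on low counts, where 1.29% of genes were called, and of 0.0388 with only the ZEB2 groups, where 14.2% were. In the ZEB1 line Acot11 had 7.57, 7.24 and 9.90 CPM in KO muscle against 8.05 and 4.16 CPM in control muscle, which overlapped, at 0.43 ± 0.27. That value rested on ZEB1 control 3, and it was 0.02 without this library and 0.96 without ZEB1 control 2. Its counts were the lowest of the set, from 113 to 368 in a library. RefSeq gives Acot11 more than 1 start, and the 250 bases before the inner one (GRCm38.p6, chr4:106799832-106800081, minus strand) are shown for the E2-box CAGGTG, the core bound by ZEB factors, in capitals:
Acot11 upstream: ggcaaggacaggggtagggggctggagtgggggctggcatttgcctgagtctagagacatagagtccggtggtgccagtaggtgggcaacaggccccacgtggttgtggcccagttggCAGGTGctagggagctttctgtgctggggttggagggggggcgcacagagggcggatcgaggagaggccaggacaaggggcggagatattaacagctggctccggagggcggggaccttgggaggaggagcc

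Acot2, a mitochondrial thioesterase, had 168, 137 and 156 CPM in ZEB2 KO muscle against 132, 131 and 26.0 CPM in ZEB2 control muscle. The groups did not overlap, but ZEB2 control 1 and 2 lay close to the lowest knockout and ZEB2 control 3 far below. The log2 fold change of 0.67 ± 0.49 dropped to 0.22 without ZEB2 control 3. Acot2 had 84.9, 52.0 and 115 CPM in ZEB1 KO muscle against 52.2 and 50.3 CPM in ZEB1 control muscle, at 0.71 ± 0.56. The groups overlapped through ZEB1 KO 2. Acot1, its cytosolic neighbour on chromosome 12, stood at 0.87 (ZEB1 line) and 0.34 (ZEB2 line) with the widest spread of the set, from 5.46 CPM in ZEB2 control 3 to 44.3 CPM in ZEB2 control 1. The pair share 27.7% of the 50-base words of Acot2 and 32.7% of those of Acot1, and the ratio of Acot2 to Acot1 ran from 2.99 to 12.0, so how the counting split their reads is uncertain. Acot13 stood at 0.22 (ZEB1 line) and -0.03 (ZEB2 line).

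Lipolysis and lipid droplet genes split in the ZEB2 line, with the lipase Pnpla2 and the coat protein Plin5 above 0 and Lipe and Plin2 below. Pnpla2 (chr7:141455198-141460743, plus strand), the adipose triglyceride lipase that starts triglyceride breakdown, had 745, 731 and 1082 CPM in ZEB2 KO muscle against 639, 491 and 258 CPM in ZEB2 control muscle. All knockout libraries lay above all controls, and ZEB2 KO 3 was the highest library. The log2 fold change was 0.88 ± 0.43, with an adjusted p of 0.172 by edgeR and 0.0864 by DESeq2. In the ZEB1 line it had 712, 290 and 653 CPM in KO muscle against 267 and 586 CPM in control muscle, which overlapped fully, at 0.37 ± 0.48. The stretch before its RefSeq start (GRCm38.p6, chr7:141454938-141455187, plus strand) is shown because it also carries a CAGGTG, in capitals, while its ZEB2 fold change has the opposite sign to that of Acot11:
Pnpla2 upstream: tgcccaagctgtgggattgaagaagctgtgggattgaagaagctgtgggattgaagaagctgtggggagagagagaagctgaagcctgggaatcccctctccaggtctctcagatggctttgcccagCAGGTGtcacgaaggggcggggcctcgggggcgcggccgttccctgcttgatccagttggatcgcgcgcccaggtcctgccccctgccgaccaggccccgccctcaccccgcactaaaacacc

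Plin2, the common droplet coat protein, had 21.8, 19.9 and 12.1 CPM in ZEB2 KO muscle against 28.3, 26.5 and 23.4 CPM in ZEB2 control muscle. The groups did not overlap, at -0.54 ± 0.24 and an adjusted edgeR p of 0.144. Its values were 24.5, 23.8 and 27.6 CPM in ZEB1 KO muscle, all between the ZEB1 control values of 30.4 and 17.03 CPM. Plin5, the coat protein that ties droplets to mitochondria in oxidative tissue, stood at 0.60 (ZEB1 line) and 0.34 (ZEB2 line), and Lipe, the hormone-sensitive lipase, at 0.17 (ZEB1 line) and -0.09 (ZEB2 line). Plin1, the droplet coat of fat cells, is no member of the set. It had 3.31, 0.575 and 0.422 CPM in ZEB2 KO muscle against 6.43, 5.80 and 8.42 CPM in ZEB2 control muscle. Its log2 fold change of -2.28 was farther below 0 than the median of the adipocyte list, -1.25. Adipoq, another marker of that list, had 13.3, 4.74 and 3.94 CPM in ZEB2 KO muscle against 24.4, 8.38 and 12.2 CPM in ZEB2 control muscle, which overlapped. Whether fat cells had a part in the Plin2 values was not tested.

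Fuel switch and uncoupling genes were the one role in which all members were above 0 in both lines, 4 of 4 each, with medians of 0.42 in ZEB1 KO and 0.47 in ZEB2 KO muscle. Pdk4 (chr6:5483351-5496309, minus strand), the fasting-induced kinase that inactivates pyruvate dehydrogenase, had 4652, 4252 and 5437 CPM in ZEB2 KO muscle against 3076, 3403 and 1155 CPM in ZEB2 control muscle. Every knockout library lay above every control, and ZEB2 control 3 lay far below all others. The means were 4780 ± 603 and 2545 ± 1215 CPM (SD, n = 3 each) and the log2 fold change was 0.91 ± 0.34. The adjusted p was 0.107 by edgeR and 0.0398 by DESeq2. Without ZEB2 control 3 the DESeq2 log2 fold change was 0.58, at an adjusted p of 0.134. Pdk4 had 4306, 2672 and 3243 CPM in ZEB1 KO muscle against 2278 and 2728 CPM in ZEB1 control muscle, at 0.44 ± 0.38. These groups overlapped, since ZEB1 KO 2 lay below ZEB1 control 3.

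Pdk2, the kinase made in most tissues, had 554, 479 and 440 CPM in ZEB1 KO muscle against 398 and 347 CPM in ZEB1 control muscle. The groups did not overlap, and the log2 fold change of 0.40 ± 0.18 had the smallest unadjusted edgeR p of the set in that line, 0.0479, with an adjusted p of 1.0. Its levels were 452, 421 and 401 CPM in ZEB2 KO muscle against 418, 306 and 295 CPM in ZEB2 control muscle, at 0.32 ± 0.16, where ZEB2 control 1 lay among the knockouts. Ucp3, the muscle uncoupling protein that follows fatty acid supply, had 213, 288 and 298 CPM in ZEB1 KO muscle against 209 and 163 CPM in ZEB1 control muscle. Again the groups did not overlap, though ZEB1 KO 1 lay close to ZEB1 control 2, at 0.52 ± 0.30. It had 175, 174 and 218 CPM in ZEB2 KO muscle against 128, 180 and 76.4 CPM in ZEB2 control muscle, which overlapped, at 0.56 ± 0.27. Ucp2, its wider-spread relative, stood at 0.28 (ZEB1 line) and 0.39 (ZEB2 line).

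**Figure D3:**
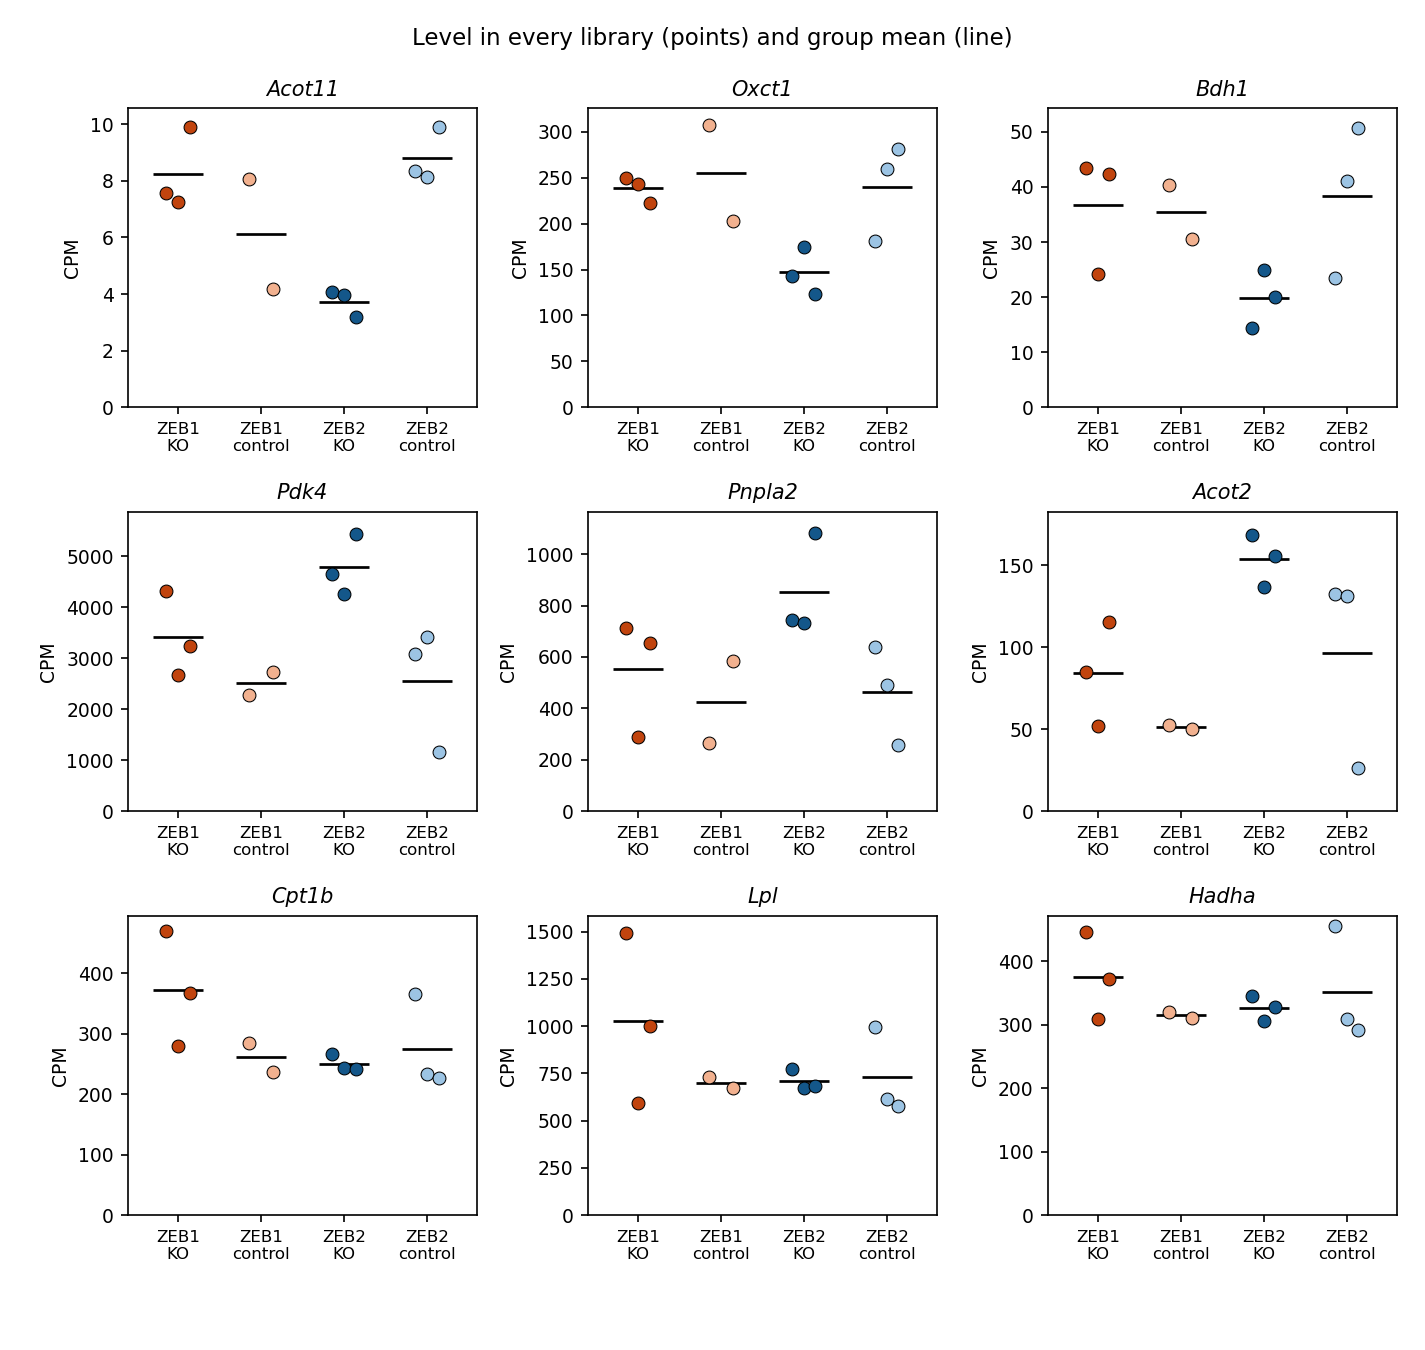
Level of 9 of the genes in CPM (y axes, each from 0) in every library, with ZEB1 KO, ZEB1 control, ZEB2 KO and ZEB2 control from left to right; points are libraries and lines are group means. ZEB2 KO points lie below all ZEB2 control points for Acot11 and Oxct1 and above them for Pdk4, Pnpla2 and Acot2, while groups overlap in both lines for Cpt1b, Lpl and Hadha.

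Ketone use was the role with the lowest median log2 fold change in ZEB2 KO muscle, -0.83, although Acot11 of the thioesterases had the lowest single value. Here both members were below 0 and both were called lower by DESeq2. Oxct1 (chr15:4026383-4155344, plus strand), the CoA transferase that commits acetoacetate to oxidation, had 144, 175 and 124 CPM in ZEB2 KO muscle against 181, 259 and 281 CPM in ZEB2 control muscle. The groups did not overlap, though ZEB2 KO 2 lay close to ZEB2 control 1. With means of 147 ± 25.9 and 240 ± 52.7 CPM (SD, n = 3 each), the log2 fold change was -0.71 ± 0.21, at an adjusted p of 0.0825 by edgeR and 0.0246 by DESeq2. Oxct1 had 249, 244 and 223 CPM in ZEB1 KO muscle, all between the ZEB1 control values of 308 and 203 CPM. Bdh1, the mitochondrial dehydrogenase that turns 3-hydroxybutyrate into acetoacetate, had 14.4, 24.9 and 20.0 CPM in ZEB2 KO muscle against 23.5, 41.01 and 50.7 CPM in ZEB2 control muscle. Here the groups overlapped, as ZEB2 control 1 lay below ZEB2 KO 2. The log2 fold change was -0.96 ± 0.32, with an adjusted p of 0.0911 by edgeR and 0.0333 by DESeq2. Its ZEB1 KO values were 43.4, 24.2 and 42.4 CPM against 40.4 and 30.5 CPM in ZEB1 control muscle. The slow-fibre list was also below 0 in ZEB2 KO muscle, as given above. Its slow myosin Myh7 had 189, 263 and 172 CPM in ZEB2 KO muscle against 442, 366 and 483 CPM in ZEB2 control muscle. The part of slow fibres in the ketone genes was not tested.

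The DESeq2 calls in the ZEB2 line leaned on single libraries. Without ZEB2 control 3, DESeq2 called no member and 59 genes in all in place of 2587, and gave no adjusted p for Acot11 or Bdh1. Without ZEB2 KO 3, or without ZEB2 KO 1, Acot11 was the 1 member called, and without ZEB2 KO 2 Acot11, Bdh1 and Oxct1 were called. Without ZEB2 control 1, 6 members were called, Acot11, Bdh1 and Oxct1 lower and Acot1, Mlycd and Pdk2 higher, and without ZEB2 control 2, 4 were called, Acot11 and Acaa2 lower and Pdk4 and Ucp3 higher. Acot11 was called in every one of these fits that gave it an adjusted p, at log2 fold changes between -1.26 and -1.10.

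The spread between libraries exceeded the difference between groups for most members in 3 of the 4 groups. The highest library exceeded the lowest by a larger factor than the ZEB2 group means differed for 26 of 41 genes within ZEB2 KO and for 38 of 41 within ZEB2 control muscle, with median spreads of 1.28-fold within ZEB2 KO and 1.65-fold within ZEB2 control libraries. The ZEB1 KO range exceeded the ZEB1 difference for 37 of 41 genes and the range of the 2 ZEB1 controls for 17, with median spreads of 1.54-fold in ZEB1 KO and 1.20-fold in ZEB1 control muscle. The extremes fell in few libraries. ZEB2 control 1 was the highest library for 14 members and ZEB1 KO 1 for 13, against 8.47% and 9.80% of all genes. ZEB2 control 3 was the lowest library for 20 members, against 11.8% of all genes. ZEB2 KO 3 was the lowest for 11 of the 41, which is near its share of all genes, 23.5%. That library was also the highest for 24.7% of all genes and for 3 members. ZEB1 KO 3 lay above the gene's own mean for 41 of 41 members, ZEB1 KO 1 for 37 and ZEB2 control 1 for 35, while ZEB1 control 3 did so for 4. In ZEB2 control 3 the fuel switch genes lay 0.89 log2 units and the thioesterases 0.75 log2 units below their means in the median, but the ketone genes 0.58 log2 units above. Without ZEB2 control 1 the median ZEB2 log2 fold change over the 41 genes was 0.26, with 28 above 0, and without ZEB2 control 3 it was -0.12, with 12 above 0.

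**Figure D4:**
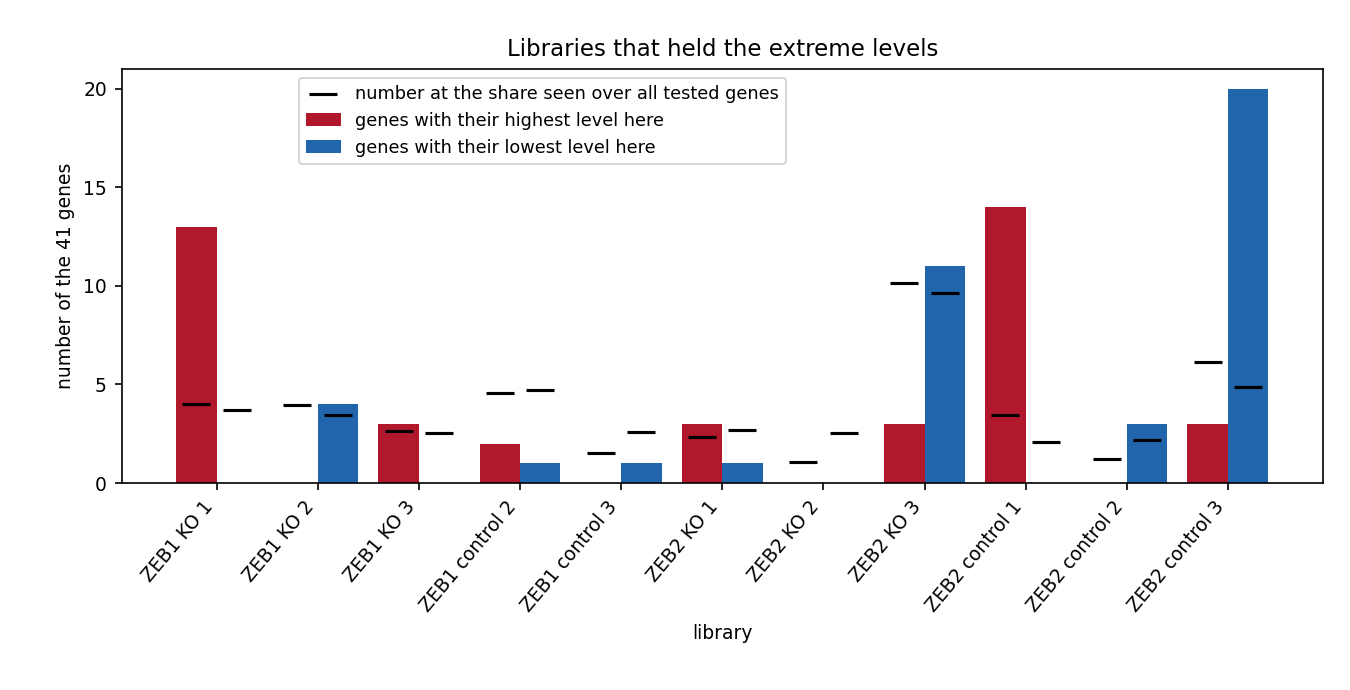
Number of the 41 genes (y axis) that had their highest (red bars) or lowest (blue bars) level in each of the 11 libraries (x axis, each knockout group left of its control); black dashes mark the number that the share over all 15416 tested genes would give. ZEB2 control 1 and ZEB1 KO 1 held the highest level of 14 and 13 genes, and ZEB2 control 3 the lowest level of 20.

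The effects of both knockouts were compared directly as the ZEB1 effect minus the ZEB2 effect, which uses all 4 groups. No gene passed the edgeR test (0%), and 1 member, Acot11, had an unadjusted p under 0.05, against 9.26% of all genes. The members' median difference was 0.27, with 33 above 0 and 8 below, beside a median of 0.06 over all genes and 54.6% above 0. Without ZEB2 control 1 the median was 0.0672, with 23 above 0 and 18 below, and without ZEB2 control 3 it was 0.45, with 38 above and 3 below. Acot11 had the largest difference, 1.67 ± 0.36 on the log2 scale, at an adjusted p of 0.516 by edgeR and 0.0223 by DESeq2, which called 17 genes (0.11%), of them 0.0714% of all genes upwards like Acot11. DESeq2 lost this call in 6 of the 11 fits that left out a library: without ZEB1 KO 3, ZEB1 control 3, ZEB2 KO 2, ZEB2 KO 3, ZEB2 control 2 or ZEB2 control 3, with adjusted p between 0.0723 and 0.467. Bdh1 differed by 1.01 ± 0.47 and Oxct1 by 0.61 ± 0.31, neither called by edgeR or DESeq2. For both lines together, 18 members were above 0 in each, 21 were above 0 in ZEB1 KO and below 0 in ZEB2 KO muscle, 1 was below 0 in both (Oxct1) and 1 was below 0 in ZEB1 KO and above 0 in ZEB2 KO muscle (Angptl4).

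Between the floxed groups without Cre, ZEB2 control against ZEB1 control, no member was called by edgeR, which called 3 genes (0.0195%), or by DESeq2, which called 16 (0.104%), and 0 members had an unadjusted edgeR p under 0.05, against 3.32% of all genes. Fold changes were above 0 for 35 of 41 members at a median of 0.12, against 52.4% of all genes at a median of 0.01. The split was 26 to 15 with library totals in place of TMM and 12 to 29 without ZEB2 control 1, where the median was -0.11. The one member separated was Acot11, whose 8.35, 8.15 and 9.90 CPM in ZEB2 control muscle lay above 8.05 and 4.16 CPM in ZEB1 control muscle, where 8.96% of all genes were separated upwards. Its log2 fold change of 0.53 ± 0.27 was 0.12 without ZEB1 control 3 and 1.06 without ZEB1 control 2. The largest fold change was that of Acot1, at 1.10 ± 0.78, and the lowest that of Ucp3, at -0.53 ± 0.30.

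Sequence windows of 250 bases before to 50 bases after a RefSeq start (GRCm38.p6) were found for 35 of the 41 genes. The E2-box CAGGTG, read on both strands, lay in at least 1 window of 10 members (28.6%), against 22.6% of all genes with a window. They were Acot11, Acot2, Acsl1, Cpt2, Lipe, Mlycd, Plin5, Pnpla2, Slc25a20 and Slc27a1. Their log2 fold changes were above 0 for 10 of 10 in the ZEB1 line, with a median of 0.40, and for 5 of 10 in the ZEB2 line, with a median of -0.00. Among the 25 members whose windows lack it, 24 were above 0 in the ZEB1 line, with a median of 0.25, and 13 in the ZEB2 line. The nuclear receptor half-site AGGTCA lay in windows of 8 members (22.9%), against 18.1% of all genes. It overlaps by its letters the longer direct repeat (DR1) of PPARs and TNAAGGTCA of oestrogen-related receptors, neither of which was found in a member, against 0.0481% and 1.43% of all genes. The FOXO letters TGTTTAC lay in the window of Lipe alone (2.86%, against 4.05% of all genes). At the inner start of Acot11 the E2-box began at position -132 and again at 44, and its outer window had none. In Pnpla2 it began at -123. A match is a run of letters in a window and not a bound site.

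Beyond the 41 genes, 97 other genes of fatty acid and ketone metabolism were in the table from lists of 6 kinds, and 95 passed the filter. In ZEB1 KO muscle 67 were above 0 and 28 below, at a median of 0.08 on the log2 scale, against 51.2% of all genes above 0. Neither edgeR nor DESeq2 called any, though 4 reached an unadjusted edgeR p under 0.05 (4.21%, against 3.24% of all genes). In ZEB2 KO muscle 43 were above 0 and 52 below, with a median of -0.10. There edgeR called none, with 28 at an unadjusted p under 0.05 (29.5%, against 33.2% of all genes), while DESeq2 called 3 higher and 16 lower, against 9.08% and 7.7% of all genes. These DESeq2 calls come from the fit that called 2587 genes with all libraries and 59 without ZEB2 control 3. Of the uptake genes DESeq2 called Fabp5, Acsl4, Acsl5 and Cav1 lower, and Gpihbp1, which anchors lipoprotein lipase in capillaries, higher. Gpihbp1 is also on the endothelial list, of which 7 of 10 genes were lower. Acsl5, the smallest p of the uptake list, had 4.63, 4.44 and 3.69 CPM in ZEB2 KO muscle against 6.53, 6.99 and 8.48 CPM in ZEB2 control muscle, and the groups did not overlap.

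Of the carnitine list DESeq2 called 1 gene, Acaca, which was lower. Acaca, the acetyl-CoA carboxylase of fatty acid synthesis, had 22.4, 16.6 and 17.1 CPM in ZEB2 KO muscle against 40.2, 35.3 and 46.8 CPM in ZEB2 control muscle, at -1.12 ± 0.23 and an adjusted p of 0.0775 by edgeR and 0.00167 by DESeq2. The groups did not overlap, unlike those of its muscle counterpart Acacb. Pnpla3, a lipase relative, had 1.13, 1.79 and 0.704 CPM in ZEB2 KO muscle against 2.94, 4.35 and 7.40 CPM in ZEB2 control muscle, at -2.00 ± 0.40. Gpam, which starts triglyceride synthesis, stood at -1.09, and G0s2, the protein inhibitor of Pnpla2, at -1.80, both called lower by DESeq2. G0s2 had 6.81, 7.02 and 2.51 CPM in ZEB2 KO muscle against 9.96, 20.4 and 26.6 CPM in ZEB2 control muscle. Its groups were separated downwards, as were those of 22.1% of all genes. The groups of Pnpla2 were separated upwards, as were those of 21.3%. A link between G0s2 and Pnpla2 was not tested. Lpin1, a phosphatidate phosphatase, was called higher at 1.01. Over the whole list of lipolysis and triglyceride synthesis 8 genes were above 0 and 8 below. Several of these genes are also made by fat cells, whose markers were lower in ZEB2 KO muscle as given above.

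Of the fuel switch relatives, DESeq2 called Pdk1, Pdp1, a phosphatase that reactivates pyruvate dehydrogenase, and Slc16a3, the lactate exporter, lower. Pdk1 had 36.9, 36.7 and 28.3 CPM in ZEB2 KO muscle against 59.0, 51.4 and 61.9 CPM in ZEB2 control muscle, below 0 where Pdk4 and Pdk2 were above. Abcd2, a peroxisomal fatty acid transporter, was called lower at -1.502, with 13.5, 12.9 and 5.10 CPM in ZEB2 KO muscle against 28.6, 25.7 and 34.7 CPM in ZEB2 control muscle. Among the regulators, Ppargc1b, Esrrb, Esrrg and Mlxipl were called lower and Foxo1 higher. Foxo1, a fasting-activated transcription factor, had 141, 167 and 257 CPM in ZEB2 KO muscle against 44.7, 77.8 and 38.1 CPM in ZEB2 control muscle. The groups were far apart, at 1.82 ± 0.52, with an adjusted p of 0.0824 by edgeR and 0.0057 by DESeq2.

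For ZEB1 KO muscle the smallest unadjusted edgeR p of each list belonged to Acsl6 (0.62 ± 0.24), Crat (0.29 ± 0.13), Decr2 (0.55 ± 0.31), Cidea (0.90 ± 0.55), Pdp2 (0.88 ± 0.39) and Ppargc1a (2.44 ± 0.98), given as log2 fold changes with SE, all at an adjusted p of 1.0. Ppargc1a encodes PGC-1alpha, the coactivator of the oxidative programme. It had 345, 24.5 and 35.3 CPM in ZEB1 KO muscle against 23.5 and 26.2 CPM in ZEB1 control muscle. In the ZEB2 line it lay between 21.7 and 47.8 CPM in every library. The high value was thus that of ZEB1 KO 1 alone. That library also held the highest level of 13 of the 41 genes, against 9.80% of all genes. ZEB2 control 1, whose Ppargc1a level lay in the range just given, held that of 14, against 8.47% of all genes. Whether the Ppargc1a level bears on the 41 genes was not tested.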

How the data were processed

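RNA of 11 gastrocnemius libraries was sequenced from TruSeq Stranded mRNA libraries, per the labels' protocols. The authors deposited counts per gene, not normalized, which are taken here to be expected counts because RSEM is named; per the submitters' processing notes, reads were handled on GRCm38 with tools that include RSEM, STAR and DESeq2, with no version or order stated. RSEM, if used for these counts, shares reads between similar transcripts. Words of 50 bases, an assumed length because read length is not stated, measured the sequence that genes share. All deposited values are whole numbers, so they were rounded before deposit or counted in another way. Library totals are given with the results. Every row named a gene.

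Genes were filtered with filterByExpr (minimum count 10, minimum total 15), which kept 15416 genes holding 99.96% of counts. Counts were scaled by TMM, and edgeR 4.0.16 (R 4.3.3) fitted 4 group means to all 11 libraries with a robust quasi-likelihood test, Benjamini-Hochberg adjusted over all genes tested, at a threshold of 0.05. The edgeR fit was also run on simulated counts drawn independently for each gene. Such counts cannot show how the fit handles genes that move together from library to library. SE is the log2 fold change divided by the root of F. DESeq2 1.42.0, limma-voom 3.58.1 (limma), other scalings and filters, a replicate block, a Y-linked covariate and leaving out each library were alternatives. DESeq2 fits that leave out a library were chosen after seeing the data. Groups hold 2 or 3 pools of 2 mice, so a p-value reflects how such pools vary, not single mice.

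The members and lists were chosen with earlier results of these data known. Values in every library are given for members called by edgeR or DESeq2 in any contrast, for the 2 members with the smallest p in each role, and for Cpt1b, Cd36, Lpl, Angptl4, Pdk4, Ucp3, Hadha and Oxct1. Eci1, Plin1, Adipoq and Myh7 were added after their values were seen. Of the other lists, genes called and the smallest p of each list were eligible. Positions are from GENCODE on GRCm38 and upstream sequences from RefSeq on GRCm38.p6. Nothing in the labels ties same-numbered libraries to a litter or day, and the replicate block is treated only as an alternative.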

Additional observations from a re-analysis of the deposited data

Results flagged for a closer look

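Acot11 was called by DESeq2, but not by edgeR, in the test of the difference between the lines. The ZEB1 effect minus the ZEB2 effect was 1.67 on the log2 scale, with a DESeq2 adjusted p of 0.0223 and an edgeR adjusted p of 0.516. Its log2 fold change was 0.43 ± 0.27 in ZEB1 KO and -1.24 ± 0.24 in ZEB2 KO muscle (SE). The DESeq2 call was lost in 6 of the 11 fits that left out a library, with adjusted p between 0.0723 and 0.467, the highest without ZEB1 control 3. That library had 4.16 CPM, against 8.05 CPM in ZEB1 control 2. Without it the edgeR log2 fold change of Acot11 was 0.02 in the ZEB1 line and 0.12 in ZEB2 control against ZEB1 control muscle, where all libraries gave 0.43 and 0.53 ± 0.27.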

How the results depend on the processing

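In the ZEB1 contrast edgeR called 6 genes with no filter, limma-voom 1 and DESeq2 21. In the ZEB2 contrast edgeR called 348 genes with no filter and 2077 with only the groups compared, and DESeq2 called 2587; members called were 1, 1 and 4. For the difference between lines the counts were 2 genes with no filter and 17 by DESeq2, with 1 member by DESeq2. Between controls they were 5 with DESeq2's size factors in edgeR, 7 with no filter, 1 with the replicate block and 16 by DESeq2. The cause of these shifts was not tested.

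Signs reversed for values near 0. In the ZEB1 line Bdh1 was -0.0025 with upper-quartile factors and -0.0222 with library totals, Acaa2 was -0.000785, -0.0264 and, with the replicate block, -0.0397, and Acadm was -0.00564 with the block. In the ZEB2 line Etfb was -0.10 under both scalings, Cd36 was -0.0763, -0.0728 and, with the Y-linked covariate, -0.065, and Lpl was 0.0162 with the block and 0.00527 by limma-voom.

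Leaving out 1 library at a time, edgeR called 0 to 5 genes in the ZEB1 contrast, 0 to 3 for the difference and 1 to 5 between controls. ZEB1 log2 fold changes ran from -0.37 to 0.22 for Oxct1, -0.11 to 1.03 for Pnpla2, -0.37 to 0.41 for Angptl4, -0.15 to 0.27 for Bdh1, -0.0946 to 0.59 for Acsl1, -0.0293 to 0.17 for Acadm, -0.13 to 0.20 for Acaa2 and -0.28 to 0.55 for Plin2. ZEB2 values ran from -0.18 to 0.26 for Lpl, -0.26 to 0.12 for Cpt1b, -0.23 to 0.13 for Etfdh, -0.23 to 0.12 for Hadha, -0.0496 to 0.14 for Etfb, -0.14 to 0.38 for Cd36 and -0.16 to 0.86 for Angptl4. DESeq2 called 59 to 3035 genes and 0 to 6 members in the ZEB2 contrast, and 0 to 1 member for the difference. The median over members ran from -0.12 to 0.26 in the ZEB2 line, 0.0672 to 0.45 for the difference and -0.11 to 0.27 between controls.

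With the replicate number as a block the median over members was 0.17 in the ZEB1 line, 0.02 in the ZEB2 line, 0.13 for the difference and 0.01 between controls, and no member was called. Same-numbered knockout and control libraries correlated at 0.465 and 0.174 in the ZEB1 line and at 0.195, -0.0274 and -0.313 in the ZEB2 line, so the numbers were not taken as pairs. With the Y-linked covariate the median was 0.30 in the ZEB1 line, -0.07 in the ZEB2 line and, for the difference, 0.41 with 38 above 0 and 3 below; the block gave 27 and 14 for the difference. Acot11 had the lowest counts of the set.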
